A study of Mus musculus with 53 samples.

Results

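The genes described here are 9 genes taken as markers of the macrophages that live in peripheral nerve, out of 49568 genes listed for each sample. These are Adgre1, Csf1r, Aif1, Cd163, Mrc1, Lyve1, Folr2, Timd4 and Mertk. They were chosen by gene symbol as markers of general and tissue-resident macrophages, and all 9 were found and passed the filter on low values in every comparison. RNA was sequenced from 53 sciatic nerve (SCN) samples of male C57BL/6J mice. At 16 weeks of age there were 5 samples of mice on standard diet (SD), 7 of prediabetic mice on a high-fat diet (HFD), and 5 of mice that had the HFD and low-dose streptozotocin (STZ), which damages insulin-producing cells, as a model of type 2 diabetes (HFD-STZ). At 24 weeks there were 8 SD, 7 HFD and 8 HFD-STZ samples, together with 7 of HFD mice and 6 of HFD-STZ mice that had been put back on the SD at 16 weeks as dietary reversal (HFD-DR and HFD-STZ-DR). SD mice had no STZ, so that diet and STZ cannot be told apart in HFD-STZ against SD. The values are normalized expression on a log2 scale, in which a difference of 1 is a doubling, and how many reads stand behind a value is unknown.

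Macrophages of peripheral nerve lie between the nerve fibres and in the surrounding sheaths, where they take up debris and clear myelin after injury. Long-lived resident cells and cells newly derived from blood monocytes share general markers, whereas several scavenger receptors and related surface proteins are typical of resident cells. A change in the number of all macrophages alike would move markers alike. A change in their state, or in the mix of resident and newly derived cells, would move some markers against the others.

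Adgre1 (F4/80), Csf1r (the receptor for the growth factors CSF1 and IL-34) and Aif1 (IBA1, an actin-binding protein) are general macrophage markers. Cd163 takes up haemoglobin bound to haptoglobin, Mrc1 (CD206) is the mannose receptor, Lyve1 binds hyaluronan and is shared with lymphatic endothelium, and Folr2 is a folate receptor. Timd4 and Mertk take part in the uptake of dying cells, Timd4 by binding phosphatidylserine and Mertk as a receptor tyrosine kinase for the bridging proteins GAS6 and PROS1.

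Promoter sequence is shown for a pair of members whose levels went together across samples (Mrc1 and Cd163) and for both members whose levels did not (Aif1 and Mertk). Each is the 250 bases before the start of transcription, read 5′ to 3′ on the strand of the gene, from RefSeq on GRCm38.p6. Capitals mark GAGGAA or its reverse complement TTCCTC, a core of the sites bound by PU.1, a factor that specifies macrophages, searched on both strands. The windows are chr2:14229164-14229413 on the plus strand for Mrc1, chr6:124304401-124304650 on the plus strand for Cd163, chr17:35176053-35176302 on the minus strand for Aif1 and chr2:128698665-128698914 on the plus strand for Mertk.
Mrc1: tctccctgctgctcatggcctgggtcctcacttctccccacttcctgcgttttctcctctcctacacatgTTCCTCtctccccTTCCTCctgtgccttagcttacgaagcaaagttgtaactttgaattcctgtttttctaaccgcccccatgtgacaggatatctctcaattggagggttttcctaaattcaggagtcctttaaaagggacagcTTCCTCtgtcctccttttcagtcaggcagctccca
Cd163: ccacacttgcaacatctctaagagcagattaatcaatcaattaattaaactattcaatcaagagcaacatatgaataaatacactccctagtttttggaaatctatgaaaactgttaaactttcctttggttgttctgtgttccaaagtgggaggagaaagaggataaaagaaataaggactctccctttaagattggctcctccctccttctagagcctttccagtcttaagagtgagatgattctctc
Aif1: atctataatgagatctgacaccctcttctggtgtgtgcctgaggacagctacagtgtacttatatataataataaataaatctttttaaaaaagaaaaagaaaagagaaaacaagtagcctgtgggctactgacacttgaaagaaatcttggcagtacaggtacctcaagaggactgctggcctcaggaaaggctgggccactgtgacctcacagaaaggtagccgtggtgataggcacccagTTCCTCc
Mertk: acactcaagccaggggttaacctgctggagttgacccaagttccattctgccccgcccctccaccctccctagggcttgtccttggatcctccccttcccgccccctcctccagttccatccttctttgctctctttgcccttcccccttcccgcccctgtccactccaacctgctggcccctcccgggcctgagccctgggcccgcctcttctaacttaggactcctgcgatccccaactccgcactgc

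The Mrc1 window held 3 matches and the Aif1 window 1, and these letters were not in the Cd163 and Mertk windows. Counting also the 50 bases after the start, 2 of the 7 windows found for 6 members held a match, against 28.3% of 32851 promoters of the same length. Lyve1 lies on chromosome 7 of GRCm38 from 110850607 to 110863239 on the minus strand, Timd4 on chromosome 11 from 46810800 to 46844332 on the plus strand, and Adgre1 on chromosome 17 from 57358691 to 57483527 on the plus strand, and none of these 3 overlaps another annotated gene. Csf1r overlaps Hmgxb3 on the other strand, Folr2 overlaps Gm10602 and Gm45319, and Mertk overlaps Gm14011 on the other strand. The study's methods describe libraries that do not keep the strand, so that reads of genes overlapping on opposite strands cannot be told apart.

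Mbp, which encodes a myelin protein of Schwann cells, had a log2 value of 19.3 to 20.6 in all 53 samples. The 10 general macrophage genes outside the set averaged 8.70 to 10.97. Fat and muscle RNA varied widely, since 6 adipocyte genes averaged 8.72 to 13.76 and 6 skeletal muscle genes 6.58 to 17.29. Pairs of samples correlated between 0.916 and 0.994 over 18069 genes, and no pair was identical. The sample least like the others, HFD-STZ replicate 7 at 24 weeks, had the lowest Cd163 (9.51), Mrc1 (9.64), Lyve1 (8.23), Timd4 (4.41) and Mertk (11.58) of all 53 samples, and the count of called members in each comparison of its group stayed at 0 without it.

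All 9 markers were detected in all 8 groups. Per kilobase of exon, the mean level was highest for Mertk, with a log2 value of 9.97, followed by Csf1r at 9.46, Cd163 at 8.46, Mrc1 at 8.23, Adgre1 at 8.18, Lyve1 at 7.95, Aif1 at 7.21, Timd4 at 5.14 and Folr2 at 4.72. Mertk correlated at only -0.20 with the mean of the general macrophage genes across samples, after removal of group means. Its level therefore need not be that of macrophages. The 2 least abundant markers, Timd4 and Folr2, are both typical of long-lived resident macrophages. Without the division by length, single log2 values ranged from 4.41 to 7.87 for Timd4 and from 4.16 to 7.24 for Folr2.

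**Figure D1:**
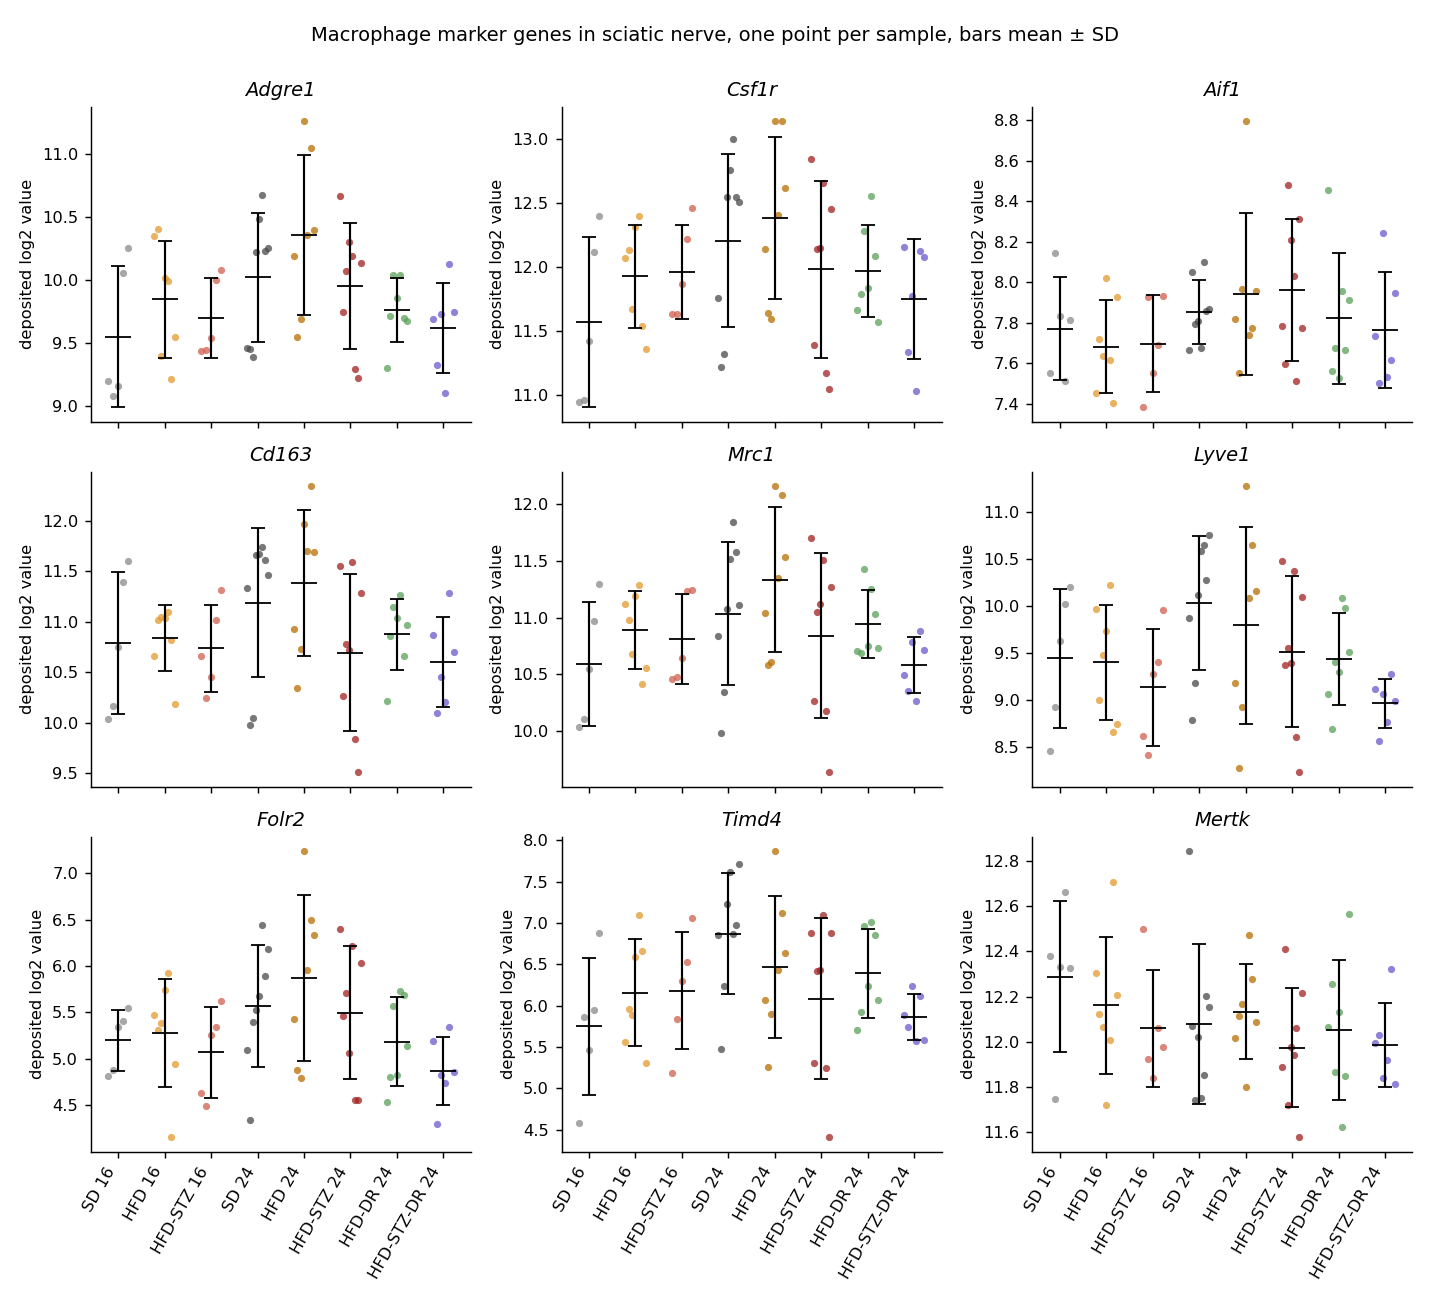
Deposited log2 value of each of the 9 markers (vertical axis, own scale per gene) in the 8 groups (horizontal axis, with age in weeks), 1 point per sample, with the mean and SD of the group in black. The ranges of any 2 groups overlap for every gene, and the Lyve1 values of HFD-STZ-DR mice all lie between 8.57 and 9.28.

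Samples of a group differed about as much as the groups did. The group means spanned 0.28 (Aif1) to 1.12 (Timd4) in log2, and the SD within groups was 0.285 for Mertk, 0.292 for Aif1 and between 0.47 (Adgre1) and 0.73 (Timd4) for the other 7. The span of means was 0.96 to 1.71 times the SD within groups. In order of group mean, Adgre1 went from 9.55 ± 0.56 (SD, n = 5) in SD at 16 weeks through 9.62 ± 0.36 (n = 6) in HFD-STZ-DR, 9.70 ± 0.31 (n = 5) in HFD-STZ at 16 weeks, 9.76 ± 0.25 (n = 7) in HFD-DR, 9.85 ± 0.47 (n = 7) in HFD at 16 weeks, 9.95 ± 0.50 (n = 8) in HFD-STZ at 24 weeks and 10.02 ± 0.51 (n = 8) in SD at 24 weeks to 10.36 ± 0.64 (n = 7) in HFD at 24 weeks. No step between neighbours in that order exceeded the SD of either group. Csf1r, Cd163, Mrc1 and Folr2 also had their highest group mean in HFD at 24 weeks, at 12.38 ± 0.64, 11.39 ± 0.73, 11.34 ± 0.64 and 5.88 ± 0.90 (n = 7).

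Lyve1 and Timd4 had another order, since both had their highest group mean in SD at 24 weeks, at 10.03 ± 0.71 and 6.87 ± 0.73 (n = 8). The lowest group mean was 8.97 ± 0.26 (n = 6) in HFD-STZ-DR for Lyve1 and 5.75 ± 0.83 (n = 5) in SD at 16 weeks for Timd4. The group means of Aif1 lay between 7.68 and 7.96 and those of Mertk between 11.97 and 12.29. An F test in limma for any difference among the 8 groups called none of the 9 markers, beside 1.97% of the genes tested, with adjusted p-values from 0.381 (Adgre1) to 0.775 (Mertk), and 0 markers had an unadjusted p-value below 0.05 in it, beside 14.6% of genes.

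Each of 14 comparisons between groups was then tested with limma over all genes. None of the 126 tests of a marker passed an adjusted p-value of 0.05, and 8 had an unadjusted p-value below 0.05. A marker level in whole nerve does not distinguish fewer macrophages from less RNA per macrophage, and this holds for all values that follow. The 95% confidence intervals of the differences reached 0.25 to 0.99 in log2 to either side, with 5 to 8 samples per group. These intervals are not adjusted for the number of genes, so that differences larger than that could also remain without a call.

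In prediabetic nerve at 24 weeks the general markers did not differ measurably from SD. Adgre1 ranged from 9.39 to 10.68 in SD, with a median of 10.23, and from 9.55 to 11.26 in HFD, with a median of 10.36. Csf1r ranged from 11.21 to 12.99 in SD, with a median of 12.52, and from 11.59 to 13.14 in HFD, with a median of 12.40. The ranges overlapped widely, and the differences were 0.33 ± 0.27 (SE) for Adgre1, with an adjusted p in limma of 0.703, and 0.18 ± 0.31 for Csf1r, with an adjusted p of 0.883. Without HFD replicate 4, the highest in both genes, the differences were 0.18 for Adgre1, 0.05 for Csf1r, 0.10 for Cd163, 0.16 for Mrc1 and 0.08 for Folr2, and -0.48 for Lyve1 and -0.64 for Timd4, with adjusted p-values in limma of 0.569 to 0.973. Of the 9 members 7 were on the higher and 2 (Lyve1 and Timd4) on the lower side in HFD, with a median difference of 0.18 against 0.01 over all genes, of which 48% were lower. In limma 0 members were called, beside 0.121% of all genes, and 0 had an unadjusted p-value below 0.05, beside 9.05%.

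In type 2 diabetic nerve at 24 weeks 8 members were on the lower side of SD and 1 (Aif1) on the higher, with a median of -0.19 against 0.00 over all genes, of which 49.8% were lower. Timd4 ranged from 5.48 to 7.71 in SD, with a median of 6.92, and from 4.41 to 7.10 in HFD-STZ, with a median of 6.43. Its difference of -0.78 ± 0.40 was the largest among the members and did not pass the test in limma (adjusted p = 0.832, exact permutation p = 0.0901). In limma 0 members were called, beside 0.0336% of all genes, and 0 had an unadjusted p-value below 0.05, beside 5.99%.

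At 16 weeks 6 members were on the higher and 3 on the lower side in HFD against SD, with 0 called in limma beside 0.00557% of all genes, and 0 with an unadjusted p-value below 0.05 beside 8.55%. In HFD-STZ against SD 4 were on the higher and 5 on the lower side, with 0 called beside 0% and 0 with an unadjusted p-value below 0.05 beside 8.41%. Lyve1 differed by -0.31 ± 0.36 there. With the mean of the adipocyte genes held constant it was at -0.74 ± 0.12 (adjusted p = 0.0526 in limma). Adgre1, Csf1r and Timd4 were then at -0.10, 0.07 and 0.05. Csf1r was 10.94, 10.96, 11.42, 12.12 and 12.40 in the 5 SD samples and 11.63, 11.63, 11.86, 12.21 and 12.46 in the 5 HFD-STZ samples. All 5 HFD-STZ values lay above the 3 lowest SD values, and the difference was 0.39 ± 0.29 with an adjusted p in limma of 0.63. Libraries were numbered in 8 consecutive runs that each held samples of more than 1 group, and whether a run was prepared together is not stated. The Csf1r values above are in order of run and rose with it in both groups. In SD at 24 weeks Csf1r was 11.76, 11.21 and 11.32 in runs 1 to 3 and 12.50 to 12.99 in the later runs. In HFD at 24 weeks Csf1r was 12.14, 11.64 and 11.59 in runs 2 to 4 and 12.40 to 13.14 in the later runs. Not all groups rose so, with 11.36 in run 7 for HFD at 16 weeks and 12.84 in run 1 for HFD-STZ at 24 weeks. With the run as a covariate, which leaves few degrees of freedom in 10 samples, the Csf1r difference was 0.68 with an adjusted p in limma of 0.0409, and with all 8 groups in the same fit it was 0.47 with an adjusted p of 0.744.

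Whether the effect of HFD or of HFD-STZ differed between both ages was tested as the change of the difference from SD. In limma 0 of 9 members were called for either, beside 0% of all genes, and 0 had an unadjusted p-value below 0.05, beside 1.67% of genes for HFD and 4.68% for HFD-STZ. The largest change was that of Timd4 with HFD-STZ, at -1.22 ± 0.63 (adjusted p = 0.756 in limma). HFD-STZ against HFD gave 0 called members in limma at both ages, beside 0% of all genes, and 0 with an unadjusted p-value below 0.05, beside 4.88% at 16 weeks and 5.59% at 24 weeks.

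After dietary reversal of prediabetic mice the means of all 9 members were on the lower side, without a call for any of them. Adgre1 ranged from 9.55 to 11.26 in HFD, with a median of 10.36, and from 9.30 to 10.04 in HFD-DR, with a median of 9.71. Of the 7 HFD values 2 lay within the range of HFD-DR and the other 5 above it. The difference was -0.60 ± 0.23 (95% confidence interval -1.09 to -0.10), with an adjusted p in limma of 0.66 and an exact permutation p of 0.0385. Folr2 differed by -0.69 ± 0.35 and Cd163 by -0.51 ± 0.27, with adjusted p-values in limma of 0.775 and 0.783. The median of the members was -0.39 against -0.00 over all genes, of which 50.6% were lower. In limma 0 of 9 members were called, beside 0.0108% of all genes, and 1 (Adgre1) had an unadjusted p-value below 0.05, beside 6.72%.

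The score of 10 other macrophage genes differed by the same size as Adgre1 between HFD-DR and HFD, at -0.60 (exact permutation p = 0.0338), and the adipocyte score by -0.73 (exact permutation p = 0.223). Scores of dendritic cell genes (-0.46, exact permutation p = 0.00991) and mast cell genes (-0.97, exact permutation p = 0.0111) differed as well. The largest difference of a score was that of skeletal muscle genes, at 2.76 (exact permutation p = 0.0659). The part of these 3 scores in the marker differences was not tested. With the adipocyte score held constant the Adgre1 difference was -0.40 ± 0.20. In diabetic mice reversal left 8 members on the lower and 1 (Mertk, 0.01 ± 0.12) on the higher side, with a median of -0.23 against 0.01 over all genes, of which 48.1% were lower. In limma 0 members were called, beside 0.084% of all genes, and 0 had an unadjusted p-value below 0.05, beside 6.48%. The largest differences were those of Folr2 (-0.63 ± 0.31, adjusted p = 0.794 in limma) and Lyve1 (-0.55 ± 0.31, adjusted p = 0.884 in limma). The adipocyte score differed by -1.78 in the same samples (exact permutation p = 0.00932), and with that score held constant Folr2 was at 0.27 and Lyve1 at 0.34, without a call. A test in limma of whether reversal acted differently in both models called 0 of 9 members, beside 0% of all genes, and 0 had an unadjusted p-value below 0.05, beside 1.71%.

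Cd163, Mrc1, Lyve1 and Folr2 had their lowest group mean in diabetic mice after reversal. All 9 members were on the lower side in HFD-STZ-DR against SD of the same age, with a median of -0.45 against -0.01 over all genes, of which 52.3% were lower. Lyve1 ranged from 8.79 to 10.75 in SD, with a median of 10.20, and from 8.57 to 9.28 in HFD-STZ-DR, with a median of 9.03. Timd4 ranged from 5.48 to 7.71 in SD and from 5.57 to 6.24 in HFD-STZ-DR, with medians of 6.92 and 5.82. For both genes the HFD-STZ-DR samples lay close together and overlapped the lower SD samples.

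The Lyve1 difference was -1.06 ± 0.28 (95% confidence interval -1.66 to -0.47), with an adjusted p in limma of 0.313 and an exact permutation p of 0.00966. The Timd4 difference was -1.01 ± 0.29, with an adjusted p in limma of 0.361 and an exact permutation p of 0.0117, and that of Folr2 was -0.70 ± 0.28, with values of 0.476 and 0.0413. These are the 3 of 9 members with an unadjusted p-value below 0.05, beside 9.16% of all genes, and 0 were called in limma, beside 0%. Leaving out each sample in turn kept the Lyve1 difference between -1.24 and -0.96 and that of Timd4 between -1.21 and -0.89, and with the library-number run as a covariate they were -1.08 and -0.98 (adjusted p = 0.153 and 0.231 in limma).

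Markers of other cells differed in the same comparison. The adipocyte score ranged from 10.71 to 13.07 in SD and from 9.13 to 11.92 in HFD-STZ-DR, a difference of -1.29 (exact permutation p = 0.0167). The score of 4 lymphatic endothelial genes, cells that share Lyve1, had means of 7.32 and 6.03, a difference of -1.30 (exact permutation p = 0.0539). The mast cell score differed by -0.86 (exact permutation p = 0.023) and the general macrophage score by -0.37 (exact permutation p = 0.0583). With the adipocyte score held constant the Lyve1 difference was -0.69 and that of Timd4 -0.79, and with the lymphatic score held constant they were -0.87 and -0.93, with no call for either in limma. The same mice against HFD-DR had all 9 members on the lower side, with 0 called in limma beside 0% of all genes, and with -0.54 ± 0.23 for Timd4, -0.47 ± 0.20 for Lyve1 and -0.36 ± 0.14 for Mrc1 (each with an adjusted p of 0.999 in limma). These 3 of 9 had an unadjusted p-value below 0.05, beside 3.58% of all genes. HFD-DR against SD had all 9 on the lower side too, with a median of -0.26, 0 called in limma beside 0% of all genes, and 0 with an unadjusted p-value below 0.05 beside 5.14%. These comparisons share the SD, HFD-DR or HFD-STZ-DR samples.

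Most markers had a higher mean in the older SD mice. Timd4 was 4.59, 5.47, 5.87, 5.95 and 6.88 in the 5 SD samples of 16 weeks, and its median was 6.92 in those of 24 weeks. No young sample reached that median, although the ranges overlapped, and the difference of 1.12 ± 0.40 had an adjusted p in limma of 0.437 and an exact permutation p of 0.0303. Lyve1 was 8.46, 8.92, 9.62, 10.02 and 10.20 at 16 weeks and differed by 0.58 ± 0.37 (adjusted p = 0.565 in limma). These Lyve1 values are in order of library-number run and rose with it. The SD samples of 16 weeks lie in 5 of the 8 runs and those of 24 weeks in all 8. In SD 8 members were on the higher side at 24 weeks, with 0 called in limma beside 0% of all genes and 1 (Timd4) with an unadjusted p-value below 0.05 beside 10.5%. In HFD 8 were on the higher side, with 0 called beside 0.0654% and 0 with an unadjusted p-value below 0.05 beside 5.9%. In HFD-STZ 6 were, with 0 called beside 0% and 0 with an unadjusted p-value below 0.05 beside 12.5%.

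The older SD samples also held more adipocyte RNA (1.63, exact permutation p = 0.0303) and lymphatic endothelial RNA (1.75, exact permutation p = 0.0179). Scores of other immune cells differed too, at 0.74 for monocytes (exact permutation p = 0.0427), 0.60 for B cells (exact permutation p = 0.014), 0.36 for T cells (exact permutation p = 0.0249) and 1.36 for mast cells (exact permutation p = 0.0466), and their part in the marker differences was not tested. With the adipocyte score held constant the age difference was 0.53 ± 0.43 for Timd4 and -0.12 ± 0.33 for Lyve1, and with the lymphatic score held constant 0.79 and 0.10, so that Lyve1 changed sign under the first of these.

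Whether the members moved as 1 group was asked across all 53 samples after the mean of each group was removed. For 7 members, Csf1r, Mrc1, Adgre1, Cd163, Lyve1, Folr2 and Timd4, all 21 pairs were correlated, with Pearson's r from 0.71 (Adgre1 and Timd4) to 0.95 (Mrc1 and Csf1r) and Spearman's rho from 0.70 to 0.94. The permutation p was 1e-05 for each, which is the smallest that 100000 permutations can give, and the values adjusted over 36 pairs were 1.71e-05. Without the 2 samples farthest from the median, r stayed between 0.66 and 0.95. Both values of a pair come from the same library, so that they share its normalization and its content of other cells.

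Aif1 and Mertk stood apart from these 7 genes. Aif1 had an r between 0.00 (Cd163) and 0.20 (Folr2) with them and a rho between 0.04 and 0.21, with adjusted permutation p-values of 0.342 to 0.987 for r. Mertk had an r between -0.23 (Folr2) and 0.14 (Cd163) and a rho between -0.24 and 0.07, with adjusted permutation p-values of 0.185 to 0.61 for r. Aif1 and Mertk were negatively correlated with each other, with r of -0.52 (adjusted permutation p = 0.000131), rho of -0.56 (adjusted permutation p = 0.000147) and r of -0.54 without 2 samples. Both genes also had the narrowest spread within groups.

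**Figure D2:**
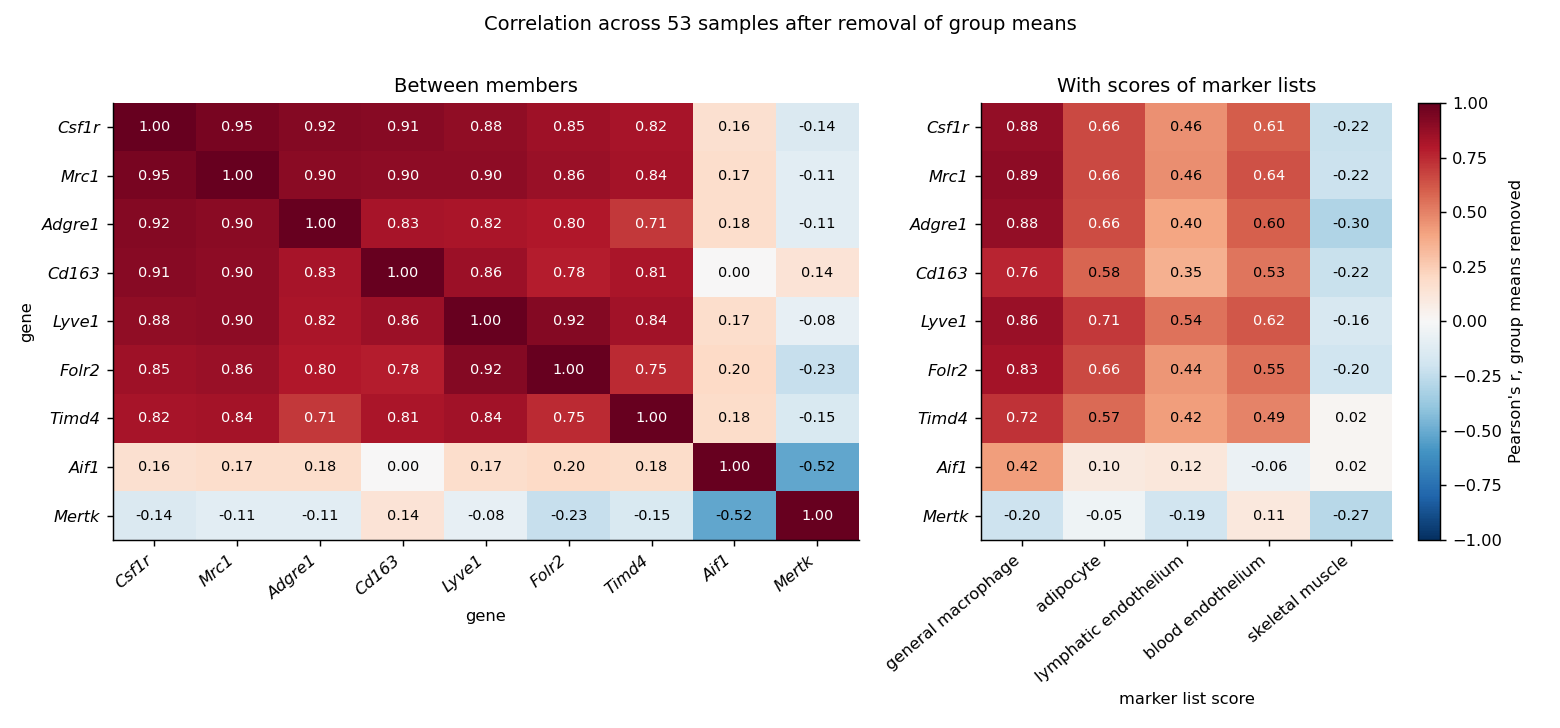
Pearson's r across 53 samples after removal of group means, between the 9 markers (left) and between each marker and the mean of marker genes of macrophages and other cells (right), with red for positive and blue for negative values. The 7 genes at the top form a block with r of 0.71 to 0.95, and Aif1 and Mertk lie outside it.

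The same 7 members followed the score of 10 general macrophage genes that are not members. Their r with it ran from 0.72 (Timd4) to 0.89 (Mrc1), rho from 0.67 to 0.90, and r without 2 samples from 0.66 to 0.90 (permutation p = 1e-05 each, adjusted over 18 relations 1.8e-05 for r and 1.64e-05 for rho). With the means of the library-number runs removed as well, r was 0.71 to 0.89. Aif1 had an r of 0.42 and a rho of 0.37 with this score (adjusted permutation p = 0.00874 and 0.0131), and r was 0.25 without 2 samples and 0.28 (adjusted permutation p = 0.105) without HFD of 24 weeks, so that this relation rests on few samples. Mertk had an r of -0.20 and a rho of -0.21 (adjusted permutation p = 0.173 and 0.171).

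Macrophage markers and fat content also went together from sample to sample. The 7 members had an r of 0.57 (Timd4) to 0.71 (Lyve1) with the adipocyte score and a rho of 0.55 to 0.70 (adjusted permutation p of 0.000141 or less for r and 0.000193 or less for rho), and r stayed at 0.54 to 0.68 without 2 samples. Aif1 had an r of 0.10 and a rho of 0.08 with it (adjusted permutation p = 0.552 and 0.593), and Mertk an r of -0.05 and a rho of -0.12 (adjusted permutation p = 0.758 and 0.461). Among 27 relations added after the values were seen, the 7 members had an r of 0.49 to 0.64 with the blood endothelial score and 0.35 to 0.54 with the lymphatic score, where Lyve1 was highest, and a rho of 0.45 to 0.63 and 0.33 to 0.55 (adjusted permutation p of 0.0467 or less for each). Without the 2 samples farthest from the median, these r were 0.42 to 0.57 and 0.34 to 0.54. With the skeletal muscle score the 7 members had an r of -0.30 to 0.02 and a rho of -0.28 to 0.02 (adjusted permutation p of 0.0918 or more for each). The part that the share of fat, vessel and muscle in a sample has in these relations was not tested.

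The genes whose variation was most like the mean of the 9 members, each scaled to its own spread, were F13a1 (r 0.95), Ifi207 (0.94), Ms4a4d (0.93), Ifi204 (0.93) and Ecm1 (0.93) among 18060 genes over 53 samples. F13a1 encodes the A chain of coagulation factor XIII and was listed among the other resident macrophage genes. An r over 0.8 was reached by 286 genes.

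To look at the markers relative to other macrophage genes, each comparison was refitted with the general macrophage score as a covariate. Samples are then compared at an equal level of those genes. Several of them, such as Ptprc, Cd53, Laptm5 and Itgam, are also expressed by other leukocytes, so that an equal score need not mean an equal number of macrophages. A changed state and a changed mix of macrophages cannot be told apart in these fits. At an equal score the difference between HFD and SD at 24 weeks was -0.82 ± 0.19 for Lyve1 (95% confidence interval -1.23 to -0.42, unadjusted p = 0.000581 and adjusted p = 0.0777 in limma) and -0.88 ± 0.24 for Timd4 (-1.39 to -0.37, adjusted p = 0.132 in limma). The other 7 members lay between -0.26 (Csf1r) and 0.12 (Mertk), and the median of all 9 was -0.21. In limma 0 members were called, beside 0.44% of all genes, and 2 (Lyve1 and Timd4) had an unadjusted p-value below 0.05, beside 15.2% of all genes. Before the score was held constant, Lyve1 ranged from 8.28 to 11.27 in HFD and differed from SD by -0.23 ± 0.41.

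**Figure D3:**
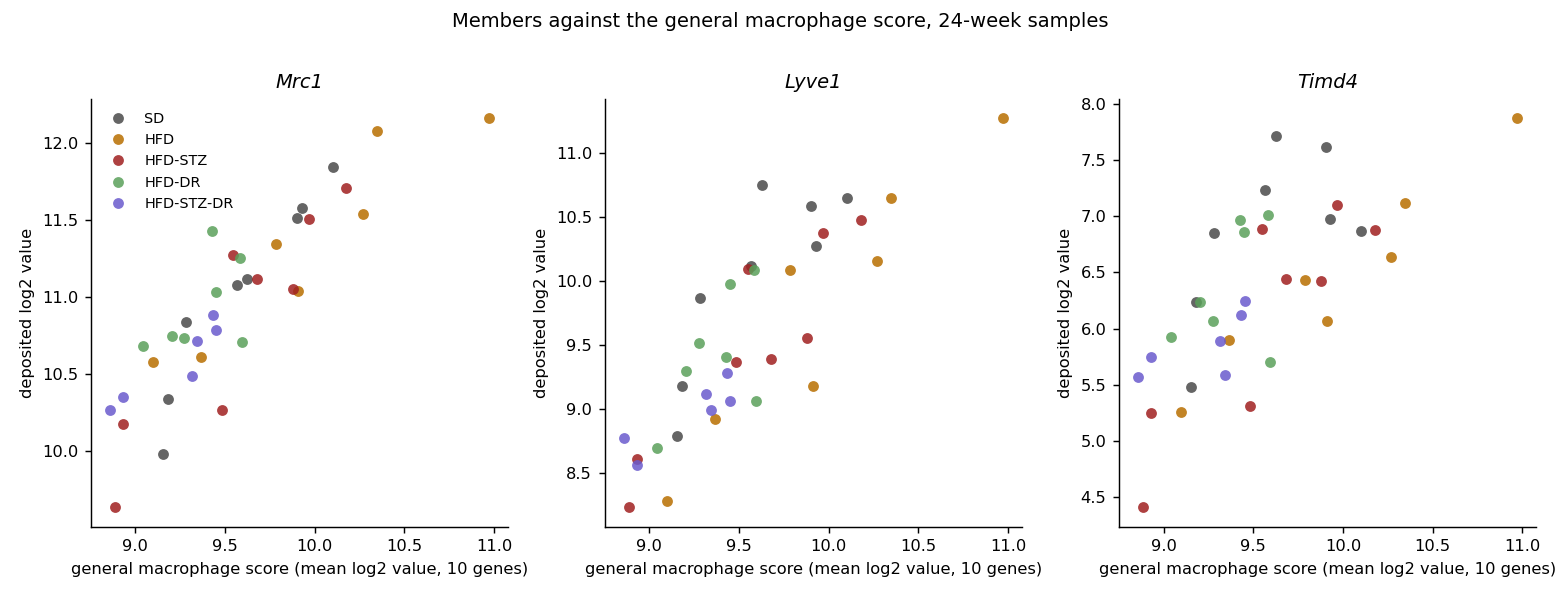
Deposited log2 value of Mrc1, Lyve1 and Timd4 (vertical axes) against the general macrophage score (horizontal axis, mean log2 value of 10 genes) in the samples of 24 weeks, 1 point per sample, coloured by group. At an equal score the fit put HFD against SD at -0.82 for Lyve1 and -0.88 for Timd4, and for Mrc1 the groups lie along one band. The HFD samples with scores of 10.27, 10.35 and 10.97 have no SD sample of a like score, since the highest SD score was 10.10.

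The Lyve1 value lay close to the threshold. Leaving out each sample in turn gave differences of -0.93 to -0.73 and adjusted p-values in limma of 0.0448 to 0.203, of which 1, without HFD replicate 5, passed. A fit of all 8 groups gave -0.81 with an adjusted p of 0.038, and with the library-number run added -0.75 with an adjusted p of 0.0104. The run as a covariate in both groups alone gave -0.62 with an adjusted p of 0.734, and the lymphatic score as a further covariate gave -0.74 with an adjusted p of 0.267. The general score itself was 9.96 ± 0.63 (SD, n = 7) in HFD and 9.59 ± 0.36 (n = 8) in SD, a difference of 0.37 (exact permutation p = 0.178). The scores of 3 of the 7 HFD samples (10.27, 10.35 and 10.97) lay above the highest SD score of 10.10. The B cell score differed by 0.77 (exact permutation p = 0.0113) and the dendritic cell score by 0.41 (exact permutation p = 0.0281) between HFD and SD. The monocyte score differed by 0.48 (exact permutation p = 0.251) and the neutrophil score by 0.83 (exact permutation p = 0.306). The monocyte scores of HFD replicates 4 (8.90) and 7 (8.48) and the neutrophil score of replicate 7 (9.31) exceeded the highest SD scores of 7.93 and 7.08. Replicate 6, with a general score of 10.35, had 6.97 and 4.74. The part of these scores in the Lyve1 and Timd4 differences was not tested.

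In HFD-STZ against SD at 24 weeks Timd4 was at -0.75 ± 0.26, Lyve1 at -0.48 ± 0.17 and Cd163 at -0.46 ± 0.18 at an equal score, with adjusted p-values in limma of 0.417, 0.424 and 0.47. These 3 of 9 had an unadjusted p-value below 0.05, beside 9.3% of all genes, and 0 were called in limma, beside 0.0728%. The mast cell score differed by -0.69 (exact permutation p = 0.0485) between HFD-STZ and SD. The HFD and HFD-STZ comparisons share the SD samples. At 16 weeks Lyve1 was at -0.62 ± 0.25 in HFD (adjusted p = 0.939 in limma), with 0 members called beside 0.00557% of all genes and 1 (Lyve1) with an unadjusted p-value below 0.05 beside 5.06%. It was at -0.57 ± 0.15 in HFD-STZ (adjusted p = 0.269 in limma), with 0 called beside 0.0392% and 1 (Lyve1) with an unadjusted p-value below 0.05 beside 10.8%. Timd4 was at 0.08 ± 0.41 and 0.17 ± 0.26 in these. Other scores differed between HFD and SD at 16 weeks, at 1.84 for adipocytes (exact permutation p = 0.0189), 0.83 for monocytes (0.0227) and 1.16 for B cells (0.00884). The T cell score differed by 0.43 (0.00631) and the dendritic cell score by 0.49 (0.0404), and in HFD-STZ the T cell score by 0.51 (0.0159). The part of the immune cell scores in the Lyve1 differences was not tested.

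**Figure D4:**
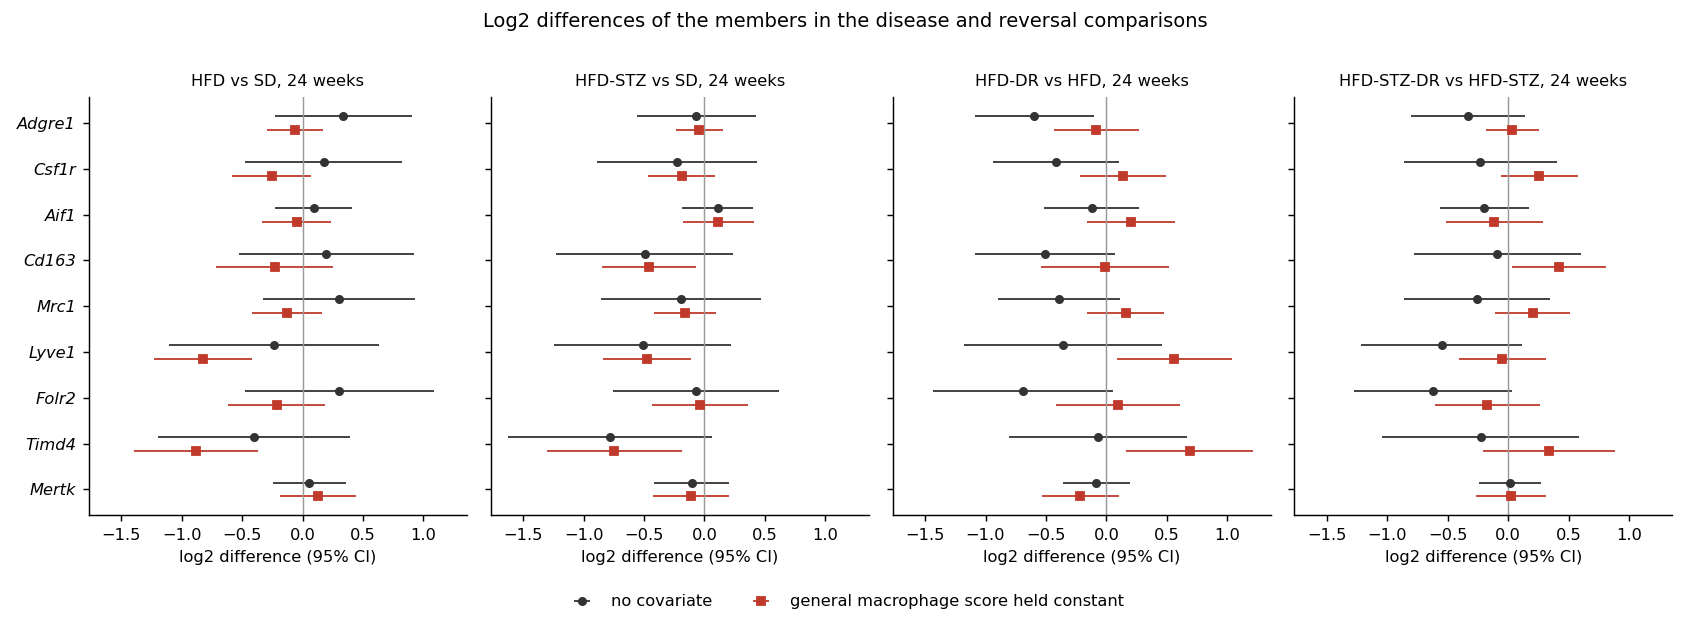
Log2 difference with its 95% confidence interval (horizontal axis) for each marker (vertical axis) in 4 comparisons at 24 weeks, without a covariate (black circles) and with the general macrophage score held constant (red squares). With the score held constant the intervals of Lyve1 and Timd4 lie below 0 in HFD and HFD-STZ against SD and above 0 in HFD-DR against HFD, and no member passed the adjusted threshold.

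After dietary reversal of prediabetic mice Timd4 was at 0.69 ± 0.25 and Lyve1 at 0.56 ± 0.22 at an equal score in HFD-DR against HFD, both with an adjusted p of 0.818 in limma. These 2 of 9 had an unadjusted p-value below 0.05, beside 5.87% of all genes, and 0 were called in limma, beside 0%. The HFD samples are shared with the comparison of HFD and SD, which ties the signs of both to each other. Adgre1, at -0.60 without the covariate, was at -0.08 ± 0.17 with it. In diabetic mice after reversal Cd163 was at 0.42 ± 0.18 at an equal score (adjusted p = 0.428 in limma), Lyve1 at -0.05 ± 0.17 and Timd4 at 0.33 ± 0.25, with 0 called in limma beside 0.028% and 1 (Cd163) with an unadjusted p-value below 0.05 beside 11.3%. HFD-STZ-DR against SD had Lyve1 at -0.53 ± 0.20 and Timd4 at -0.60 ± 0.28, with 0 called beside 0% and 1 (Lyve1) with an unadjusted p-value below 0.05 beside 7.32%.

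The remaining comparisons at an equal score called 0 members in limma, beside 0.0327% of all genes for HFD at 24 against 16 weeks and 0% for the others. From 16 to 24 weeks in HFD-STZ, Timd4 was at -0.65 ± 0.25, Cd163 at -0.46 ± 0.18, Mrc1 at -0.38 ± 0.15 and Csf1r at -0.37 ± 0.14 (adjusted p = 0.19 to 0.199 in limma), which are 4 of 9 with an unadjusted p-value below 0.05, beside 20.6% of all genes. HFD-STZ against HFD at 16 weeks had 1 (Csf1r, 0.31 ± 0.13) beside 6.33%. HFD-STZ against HFD at 24 weeks had 0 beside 5.43%, HFD-DR against SD 0 beside 4.82%, HFD-STZ-DR against HFD-DR 0 beside 2.86%, and age 0 beside 6.17% in SD and 4% in HFD. Over all 14 comparisons 16 of 126 tests at an equal score had an unadjusted p-value below 0.05.

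The level of Lyve1 relative to Csf1r within each sample is given as a description without a test. In SD Lyve1 minus Csf1r was -2.12 ± 0.25 (SD, n = 5) at 16 weeks and -2.17 ± 0.25 (n = 8) at 24 weeks. The other 6 groups had lower means, at -2.52 ± 0.39 in HFD and -2.82 ± 0.30 in HFD-STZ at 16 weeks, and at -2.59 ± 0.48 in HFD, -2.46 ± 0.26 in HFD-STZ, -2.53 ± 0.38 in HFD-DR and -2.78 ± 0.30 in HFD-STZ-DR at 24 weeks. At 16 weeks the SD values (-2.48 to -1.80) and the HFD-STZ values (-3.22 to -2.50) did not overlap, a contrast singled out after its values were seen. Csf1r was on the higher side (0.39 ± 0.29) and Lyve1 on the lower (-0.31 ± 0.36) in HFD-STZ there. Neither was called in limma, and the contrast is not one of Lyve1 alone. For the levels of single genes in that comparison, which is another measure, the groups did not overlap in 2.09% of all genes and in 0 of 9 members. A share over differences between pairs of genes is not given. Timd4 minus Csf1r had its highest mean in SD at 24 weeks, at -5.33 ± 0.45, and means between -5.91 and -5.57 in the other 7 groups.

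**Figure D5:**
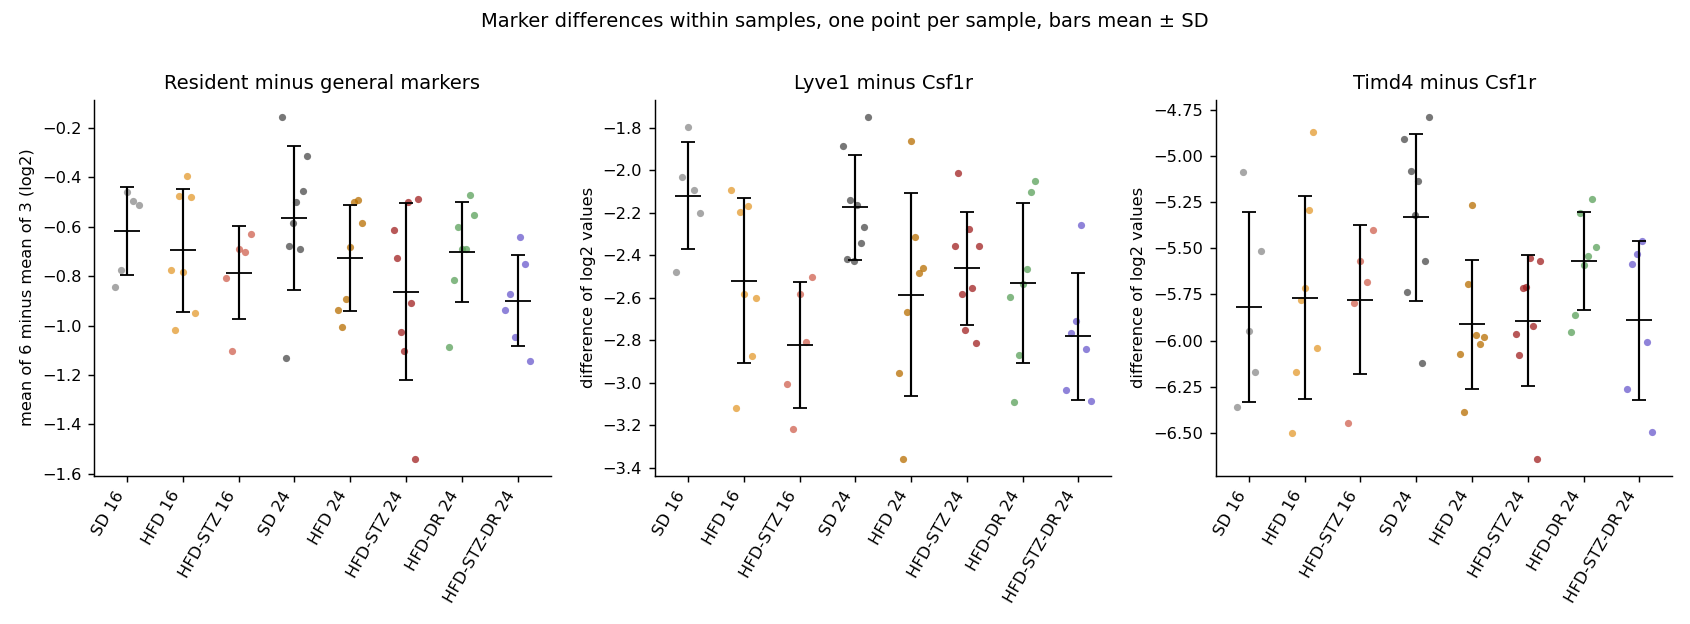
Differences between markers within each sample (vertical axes, log2) in the 8 groups (horizontal axes, with age in weeks), 1 point per sample, with mean and SD in black. The left panel has the mean of 6 resident markers (Cd163, Mrc1, Lyve1, Folr2, Timd4, Mertk) minus that of 3 general markers (Adgre1, Csf1r, Aif1), with the highest mean in SD at 24 weeks (-0.56) and the lowest in HFD-STZ-DR (-0.90), and the other panels have Lyve1 and Timd4 minus Csf1r. Mertk and Aif1 did not vary with the other markers, so the left panel is not a measure of the resident share alone.

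The mean of the 6 resident markers minus that of the 3 general markers was -0.62 ± 0.18 in SD, -0.70 ± 0.25 in HFD and -0.79 ± 0.19 in HFD-STZ at 16 weeks. At 24 weeks it was -0.56 ± 0.29 in SD, -0.73 ± 0.22 in HFD, -0.86 ± 0.36 in HFD-STZ, -0.70 ± 0.20 in HFD-DR and -0.90 ± 0.19 in HFD-STZ-DR, and the ranges of these groups overlap. Mertk, a resident marker here, and Aif1, a general one, had an r of only -0.20 and 0.42 with the general macrophage score. The difference of both means therefore also depends on how much macrophage RNA a sample held, and is not a measure of the resident share alone.

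Genes of the pathways around the members were followed in 7 lists, and limma called no listed gene in any comparison. The study's DESeq2 analysis called more genes in HFD against SD at 24 weeks than the 22 that limma called here. Its supplement marks Hp and Itgax, among the listed genes, as shared with its differential analysis. The CSF1R ligands Csf1 and Il34 had a median difference of 0.05 in HFD against SD at 24 weeks, with Csf1 at 0.10 ± 0.15 (adjusted p = 0.858). Of the MERTK relatives and ligands (Axl, Tyro3, Gas6 and Pros1) 2 of 4 were on the lower side in HFD and 3 of 4 in HFD-STZ, with Gas6 at -0.47 ± 0.30 in the latter (adjusted p = 0.832 in limma). Of 6 hyaluronan genes, which make, degrade or bind the ligand of Lyve1, 2 were on the lower side in HFD and the median was 0.05.

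In the haemoglobin route of Cd163 the gene with the smallest p-value was Hp in each of 3 comparisons. Hp (haptoglobin, which carries haemoglobin to Cd163 and is also made by adipocytes) differed by 2.06 ± 0.49 in HFD against SD (adjusted p = 0.128 in limma), by -2.53 ± 0.59 in HFD-DR against HFD (adjusted p = 0.286) and by -2.87 ± 0.53 between HFD-STZ-DR and HFD-STZ, with an adjusted p of 0.0603. The median of the 6 genes of this list was 0.13, -0.23 and -0.24 in these comparisons, with 1, 2 and 2 genes at an unadjusted p-value below 0.05, beside 9.05%, 6.72% and 6.48% of all genes.

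Among 18 other genes of resident macrophages, 2 were on the lower side in HFD against SD, 10 in HFD-STZ against SD, 16 in HFD-DR against HFD and 16 in HFD-STZ-DR against HFD-STZ, with medians of 0.19, -0.08, -0.48 and -0.49. Cx3cr1, the fractalkine receptor, had the smallest p-value in the first and second of these, at -0.65 ± 0.23 (adjusted p = 0.385 in limma) and -0.54 ± 0.22 (adjusted p = 0.815). Ltc4s, leukotriene C4 synthase, had it in the others, at -1.09 ± 0.40 (adjusted p = 0.642) and -1.69 ± 0.36 (adjusted p = 0.102). At an equal macrophage score 15 of the 18 were on the lower side in HFD against SD, with a median of -0.19, beside 49.8% of all genes. In HFD-DR against HFD 2 were, with a median of 0.23, beside 52.4% of all genes. Both comparisons share the HFD samples, which ties their signs to each other.

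Among genes of lipid-associated macrophages, Itgax (CD11c) differed by 1.79 ± 0.37 in HFD against SD (adjusted p = 0.0683 in limma), by 1.39 ± 0.30 at an equal macrophage score (adjusted p = 0.0582) and by -1.44 ± 0.36 in HFD-DR against HFD (adjusted p = 0.332). Of 10 genes of this list 8 were on the higher side in HFD and 10 in HFD-STZ against SD, and 9 and 8 were on the lower side after reversal in prediabetic and diabetic mice. The medians were 0.26, 0.18, -0.35 and -0.31, with 4, 4, 7 and 6 genes at an unadjusted p-value below 0.05, beside 9.05%, 5.99%, 6.72% and 6.48% of all genes. Over all genes 48%, 49.8%, 50.6% and 48.1% were on the lower side in these comparisons. Of 10 inflammatory genes such as Tnf and Il1b, 8 passed the filter in HFD against SD, of which 4 were on the lower side, with a median of -0.04 and 0 at an unadjusted p-value below 0.05, beside 9.05% of all genes.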

How the data were processed

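RNA-seq of 53 sciatic nerve samples was analysed in the 8 groups that the labels give. Per the labels and the study's methods, the authors used HISAT2 for alignment to the mouse build GRCm38, featureCounts for gene counting and DESeq2 (versions not given in the sources used here). The deposited files hold 1 log2 value per gene symbol and sample, and the authors' normalization is not named. These are not counts or FPKM, so no count model was used. The study's methods state the reads per sample, but how many lie behind a value is unknown, and no counting interval is given. The labels and the methods name different library kits.

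Comparisons were fitted in limma 3.58.1 (R 4.3.3) with trended empirical Bayes variances on the samples of their groups. Left out were genes whose mean log2 value was below 3.32, which is 10 in linear units, and 25 genes with any value above 22. P-values are 2-sided and Benjamini-Hochberg adjusted over all genes tested, with a threshold of 0.05, and no list was tested as a set. For comparisons at an equal macrophage score, the mean of 10 general macrophage genes (Fcgr1, Fcgr3, Itgam, Tyrobp, Fcer1g, Laptm5, Cybb, Spi1, Cd53 and Ptprc) was a covariate. Exact permutation tests of single members and scores are 2-sided and unadjusted. Correlations used 100000 permutations of samples within groups, and cell scores are mean log2 values of marker genes. Of the Schwann cell list 1 gene is given, and the score of that list is not reported here. Gene positions are those of GENCODE on GRCm38. The fit was tested on simulated data. Python 3.11.15, numpy 2.4.6, pandas 2.3.3, scipy 1.17.1 and matplotlib 3.10.9 were used.

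The members, lists and tests were chosen with earlier results of these data known. Named are the 9 members, genes of the lists with the smallest p-value where none was called, and the 5 genes most like the mean of the members. The labels do not say that samples are separate animals, and p-values measure the spread between samples. Alternatives were other filters, centring on sample medians, all groups in 1 fit, the library-number run or the adipocyte score as a covariate, robust variances, another score and leaving out each sample. The lymphatic score as a covariate, removal of run means from correlations, and correlations with 3 further cell scores were chosen after seeing the data.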

Additional observations from a re-analysis of the deposited data

Results flagged for a closer look

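In 72 sets of 5 to 8 values, each 1 member in 1 group, the highest or the lowest sample was compared with the rest. A sample stood apart in 2 sets, where chance alone flags about 1 in 20. Aif1 in HFD replicate 4 at 24 weeks was 8.79, while the other 6 samples had 7.55 to 7.97. The gap was 0.667 of the range, above the limit of 0.568. Without this sample the Aif1 difference between HFD and SD mice at 24 weeks was -0.05, and 0.09 with it. The same sample had the highest Adgre1 (11.26), Csf1r (13.14), Mrc1 (12.16), Lyve1 (11.27), Folr2 (7.24) and Timd4 (7.87) and the lowest Mertk (11.80) of its group. Mertk in SD replicate 1 at 24 weeks was 12.84, while the other 7 had 11.74 to 12.20, a gap of 0.581 of the range against a limit of 0.526. No test of a difference between effects in separate groups passed the threshold for a member.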

How the results depend on the processing

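Of 300 recomputed counts of called members under other settings with all samples, 3 differed from 0, and each rose to 1: HFD-STZ against SD at 16 weeks with the library-number run as a covariate (Csf1r), and HFD against SD at 24 weeks at an equal macrophage score, with all 8 groups in 1 fit and with the run added to that fit (Lyve1). Leaving out each sample in turn gave 0 to 1 in that last comparison, where 1 of 514 such fits differed, and 0 elsewhere. Mertk and the macrophage score passed the threshold without the SD mice of 16 weeks (r -0.30, adjusted permutation p = 0.0444). Of 7284 recomputed member differences 407 had another sign, 4 of them with an unadjusted p-value under 0.05 in either fit. With the adipocyte score held constant Adgre1 went from 0.30 to -0.39 and Cd163 from 0.05 to -0.60 in HFD against SD at 16 weeks, and Cd163 from -0.09 to 0.78 in HFD-STZ-DR against HFD-STZ mice. With the run as a covariate Cd163 went from -0.06 to 0.27 in HFD-STZ against SD at 16 weeks. The cause was not tested. No paired analysis was possible because the labels give no replicate numbers that groups share, and the library-number run took its place. The reads behind single values are unknown, and the spread between samples limits what could be detected.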
